A study of Mus musculus with 6 samples.

Results

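The genes described here encode the proteins that carry glucose into the cell, break it down to pyruvate and lactate, move lactate across the membrane, control the entry of pyruvate into the mitochondrion, and store and release glycogen. They were taken by gene symbol from a fixed list, and all 40 were found among the 45777 genes of the deposited table, each in 1 row. The libraries came from neutrophils of C57BL/6 wild type mice, purified from bone marrow on a Percoll gradient, a density step that enriches neutrophils and leaves some other marrow cells. They then spent 24 h in vehicle (DMSO) or in 10 µM PGE2 (prostaglandin E2, an arachidonic acid product that signals through cell surface receptors, some of which raise cyclic AMP), and each group holds 3 libraries, which the series calls biological replicates. The age and sex of the mice, and whether libraries of both groups came from the same animals, are not given in the sources used here.

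Neutrophils have few mitochondria and draw most of their ATP from glycolysis, so glucose uptake, hexokinase and lactate export are central to how they move, engulf microbes and make oxidants. They also keep glycogen, which glycogen phosphorylase opens when glucose runs short, and they feed glucose-6-phosphate into the pentose phosphate pathway, whose NADPH is used by the oxidase. Flux depends on enzyme activity and allosteric control as well as on mRNA, and only mRNA was measured here.

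Read totals per library lay between 42091346 and 56238941. Levels are given as CPM, a gene's estimated read count scaled to library size by TMM, when a gene is compared between libraries, and as TPM, the authors' abundance value that also corrects for transcript length, when genes are compared with each other. The label neutrophil was checked against 12 markers, all of which were measured, and their summed level was 85893 to 90993 CPM in vehicle and 75954 to 91224 CPM with PGE2. S100a9, S100a8 and Retnlg were the most abundant and were not called, while 7 of the 12 fell, or 58.3% against 14.3% of all genes tested, and the median log2 fold change of the 12 was -0.75. Markers of other cells were present too. The summed level of the 12 red cell markers in the table (of 13 listed, 11 of which passed the filter) was 4467 to 20167 CPM in vehicle and 15716 to 51552 CPM with PGE2, and hemoglobin genes took 0.413, 1.86 and 1.11% of counts in vehicle replicates 1, 2 and 3 and 1.57, 4.87 and 2.51% in PGE2 replicates 1, 2 and 3. The 8 B cell markers summed to 392 to 524 CPM in vehicle and 579 to 842 CPM with PGE2, the 5 eosinophil markers to 116 to 228 and 58.0 to 91.0 CPM, and the 7 monocyte and macrophage markers to 1109 to 1507 and 749.7 to 1138 CPM. The lists for T cells (53.5 to 114 and 54.4 to 148 CPM), basophils and mast cells (26.1 to 79.7 and 30.2 to 60.6 CPM), platelets and megakaryocytes (17.9 to 25.5 and 21.4 to 32.8 CPM) and dividing cells (182 to 336 and 229 to 319.9 CPM) overlapped between vehicle and PGE2. The median log2 fold change of the 11 red cell markers tested was 1.27, with no call. By edgeR's test 3 of 8 B cell markers rose, and 3 of 5 eosinophil and 2 of 7 monocyte markers fell. The eosinophil markers not called, Il5ra and Ccr3, were scarce, with vehicle means of 1.43 and 1.56 CPM. They went the other way, with log2 fold changes of 0.505 and 0.349, and for Ccr3 the groups did not overlap. Among the most abundant were Hbb-bs, Hba-a1 and Hba-a2 for red cells, Cd79a and Cd79b for B cells, Prg2, Epx and Siglecf for eosinophils, Ly6c2, Csf1r and Ccr2 for monocytes, Lck, Cd3d and Cd8a for T cells, Mcpt8, Cpa3 and Ms4a2 for basophils and mast cells, Itga2b, Pf4 and Gp1ba for platelets and Mki67, Top2a and Birc5 for dividing cells. None of these markers was at 0 counts in all libraries. In bulk libraries, fewer cells of a type and less RNA per cell cannot be told apart, and the part of these other cells in the results was not tested except where a value is given.

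With PGE2, the 3 hexokinase genes were lower and the 2 lactate transporter genes higher, the 2 glucose transporter genes went opposite ways, and none of the 8 genes of lower glycolysis passed the test. The hexokinase genes, glucose-6-phosphate isomerase (Gpi1), the main glucose transporter gene Slc2a3, the regulatory enzyme gene Pfkfb4, the aldolase gene Aldoa and 3 of 5 glycogen genes fell. The lactate transporter genes Slc16a3 and Slc16a1, the glucose transporter gene Slc2a1, the phosphofructokinase gene Pfkl and the pyruvate dehydrogenase subunit gene Pdhb rose. Of the 40 members, 39 passed the filter of at least 10 counts in at least 3 libraries. By edgeR's quasi-likelihood test, with p-values adjusted over all 15947 genes tested and a threshold of 0.05, 5 of the 39 were higher and 10 lower, or 12.8% and 25.6%, where 10.1% of all genes tested were higher and 14.3% lower. The median log2 fold change of the 39 was -0.14, and that of all genes tested was 0.04. In 5 members the lowest PGE2 library exceeded the highest vehicle library, and in 16 the order was reversed without overlap, while over all genes tested these patterns made up 20.5% and 21.8%. Calls in either direction made up 24.4% of all genes tested and 38.5% of the 39 members. Most called members changed by less than 2-fold (80.0% of them, and 74.2% of all called genes).

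**Figure D1:**
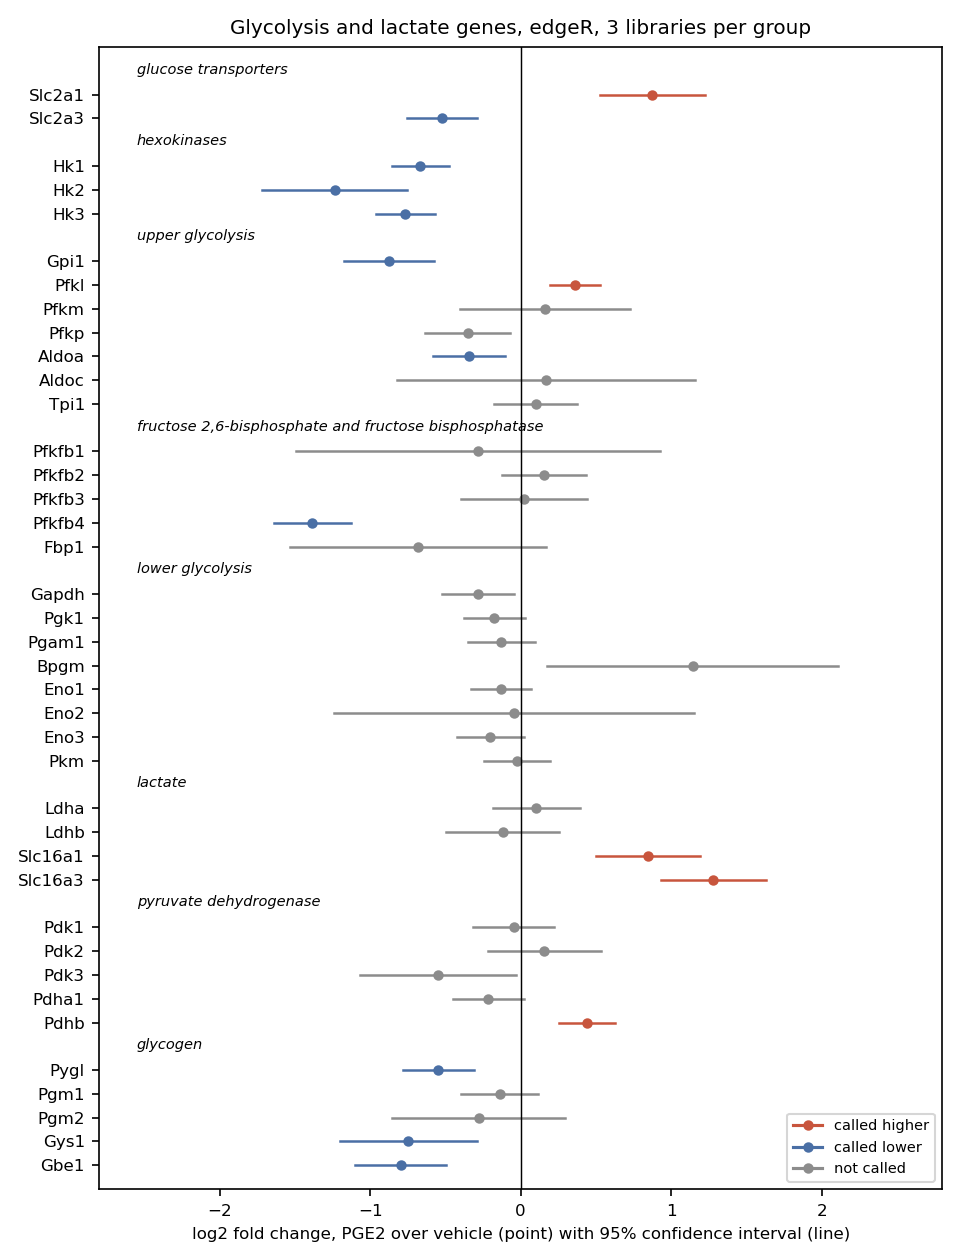
Log2 fold change of each member that passed the filter, PGE2 over vehicle, by role along the pathway; points are estimates and lines 95% confidence intervals from edgeR with 3 libraries per group. The 3 hexokinases lie left of 0, the 8 genes of lower glycolysis have no called member, and Slc16a1 and Slc16a3 lie to the right.

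The split between higher and lower calls moved with the scaling. On the authors' TPM values, as log2(TPM + 1) with limma, 3 members were higher and 11 lower, against 7.66% and 17.9% of all genes tested. The median log2 fold change over all genes was then -0.06 and that of the members -0.24. On log2(TPM + 0.1) 3 were higher and 11 lower as well, against 7.55% and 17.5%. With library totals alone, 5 members were higher and 8 lower, against 13.7% and 11.0% of all genes, and higher genes made up 55.5% of all calls, against 41.5% with TMM and 30.0% on log2(TPM + 1). A setting added after the data were seen left out both libraries numbered 2, which held the most hemoglobin counts in their groups. With 2 libraries per group, 4 members were higher and 3 lower, against 3.02% and 5.44% of all genes, and higher genes made up 35.7% of all calls. With the replicate number as a block, 6 members were higher and 12 lower, against 16.6% and 18.9% of all genes. When a single library was left out, 5 to 6 members were higher and 8 to 12 lower, against 6.39 to 9.86% and 10.3 to 14.5% of all genes. Where a log2 fold change of at least 1 was also asked for, 1 member was higher and 2 lower, against 2.53% and 3.78%.

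Short stretches of DNA before the start sites of 5 members are printed here, because these genes had the largest called rises (Slc16a3 and Slc2a1) and falls (Hk2 and Pfkfb4) among the members or hold the only cyclic AMP response element found among the members (Ldha). Each is the 250 bases upstream of a start site in RefSeq, build GRCm38.p6, written 5′ to 3′ on the strand of the gene. Capitals mark ACGTG, the core of the hypoxia response element bound by HIF-1 (CACGT when it lies on the other strand), CACGTG, the E-box, which contains ACGTG on both strands, and TGACGTCA, the full cyclic AMP response element.
Slc16a3 (chr11:120948817-120949066, plus strand): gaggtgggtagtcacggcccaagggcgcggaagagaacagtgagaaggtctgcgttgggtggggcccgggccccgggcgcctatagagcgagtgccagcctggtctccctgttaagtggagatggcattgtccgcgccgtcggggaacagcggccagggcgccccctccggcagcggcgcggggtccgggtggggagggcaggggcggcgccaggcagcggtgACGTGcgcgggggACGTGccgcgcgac
Slc2a1 (chr4:119108495-119108744, plus strand): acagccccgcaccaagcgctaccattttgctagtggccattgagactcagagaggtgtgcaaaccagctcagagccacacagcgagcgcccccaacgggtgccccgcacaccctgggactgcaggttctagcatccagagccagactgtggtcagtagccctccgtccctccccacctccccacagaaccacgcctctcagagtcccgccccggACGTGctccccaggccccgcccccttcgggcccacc
Hk2 (chr6:82774455-82774704, minus strand): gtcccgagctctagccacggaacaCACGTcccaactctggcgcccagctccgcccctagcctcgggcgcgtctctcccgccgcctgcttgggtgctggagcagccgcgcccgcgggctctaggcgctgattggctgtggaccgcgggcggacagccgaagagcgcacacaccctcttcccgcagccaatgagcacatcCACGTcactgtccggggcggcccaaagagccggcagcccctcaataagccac
Pfkfb4 (chr9:108991652-108991901, plus strand): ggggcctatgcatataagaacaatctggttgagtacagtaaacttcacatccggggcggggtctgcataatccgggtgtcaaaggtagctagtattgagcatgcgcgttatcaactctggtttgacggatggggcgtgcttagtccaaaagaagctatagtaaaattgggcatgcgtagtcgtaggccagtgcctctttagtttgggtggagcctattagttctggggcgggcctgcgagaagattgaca
Ldha (chr7:46845554-46845803, plus strand): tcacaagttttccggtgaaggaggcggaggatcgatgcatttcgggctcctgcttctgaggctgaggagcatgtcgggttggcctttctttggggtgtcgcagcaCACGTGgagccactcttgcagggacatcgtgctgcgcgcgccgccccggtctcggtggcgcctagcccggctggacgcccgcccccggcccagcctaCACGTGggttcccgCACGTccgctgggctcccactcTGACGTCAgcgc

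In windows of 300 bases (250 before to 50 after a start), searched on both strands, ACGTG was found for 22 of 39 members with an entry and in 44.8% of their 58 windows, against 19.6% of all 32851 windows in the RefSeq table. Ldha has E-boxes at -145 and -48 and a further ACGTG at -34. Slc2a3 had no entry. Slc16a3 has ACGTG at -27 and -14 and Slc2a1 at -36, counted from the start site. The 2 matches of Hk2 lie at -226 and -52, while the Pfkfb4 window has none. That window begins at 108991652, inside the deposited span of Pfkfb4 (from 108988272), and sequence before the start of the span was not searched. The printed Slc16a3 and Ldha stretches also lie inside the deposited spans, which begin at 120948484 and 46842274. By outcome, ACGTG was found in 4 of 5 members that rose, 5 of 9 that fell and 13 of 25 others. Counted by gene, it was found for 21.8% of all 27025 genes with an entry. The E-box was in 6 members and 10.3% of their windows, against 7.15% of all, and the full cyclic AMP response element was in 1 member (Ldha, at -12) and 1.72% of windows, against 1.79% of all. These matches describe letters in the sequence, and no binding was measured.

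Glucose enters through facilitative transporters, of which GLUT3 (Slc2a3) has the higher affinity and GLUT1 (Slc2a1) is widespread. In vehicle Slc2a3 was at 532 ± 58.5 TPM and Slc2a1 at 26.7 ± 1.38 TPM (mean ± SD, n = 3 per group here and below), so Slc2a3 made up 95.2 ± 0.695% of their sum. In CPM, Slc2a3 (chr6:122727809-122802363, mm10, as are all positions here) was at 1161, 1242 and 1393 in vehicle and at 953, 845 and 846 with PGE2. Each PGE2 library was below each vehicle library. The log2 fold change was -0.52 ± 0.10 (SE), with an edgeR adjusted p of 0.00744. Slc2a1 (chr4:119108745-119137330) went the other way, from 36.7, 43.4 and 37.8 CPM to 65.5, 89.5 and 61.3 CPM, again without overlap (log2 fold change 0.88 ± 0.15, edgeR adjusted p = 0.00452). Its share of the pair's TPM was 4.84 ± 0.695% in vehicle and 11.3 ± 2.49% with PGE2. Their summed TPM was 559 ± 57.2 in vehicle and 406 ± 46.8 with PGE2.

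Hexokinase traps glucose as glucose-6-phosphate. Hk3, the form typical of myeloid cells, gave 79.9 ± 1.94% of the summed hexokinase TPM in vehicle and 80.6 ± 0.933% with PGE2 and so was the main form in both. That total was 505 ± 34.1 TPM in vehicle and 272 ± 31.3 TPM with PGE2. Hk3 (chr13:55005985-55021475) was at 721, 737 and 801 CPM in vehicle and 469, 427 and 433 CPM with PGE2 (log2 fold change -0.77 ± 0.08, edgeR adjusted p = 0.000736). Hk1 (chr10:62268855-62379920), a form that binds mitochondria, was almost identical in the vehicle libraries, at 161, 159 and 159 CPM, and lower in the PGE2 libraries, at 106, 103 and 92.6 CPM (-0.67 ± 0.08, edgeR adjusted p = 0.00112). Hk2 (chr6:82725025-82774454), the inducible form, was at 122, 94.8 and 88.3 CPM and at 56.9, 39.8 and 32.7 CPM (-1.24 ± 0.21, edgeR adjusted p = 0.00416). In all 3 genes the groups were apart. Hk2 is the only hexokinase gene with a change beyond 2-fold, and in both groups replicate 1 was its highest library. Leaving out both libraries numbered 2 gave Hk2 a log2 fold change of -1.23 with an edgeR adjusted p of 0.0505, while Hk1 and Hk3 passed there too.

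**Figure D2:**
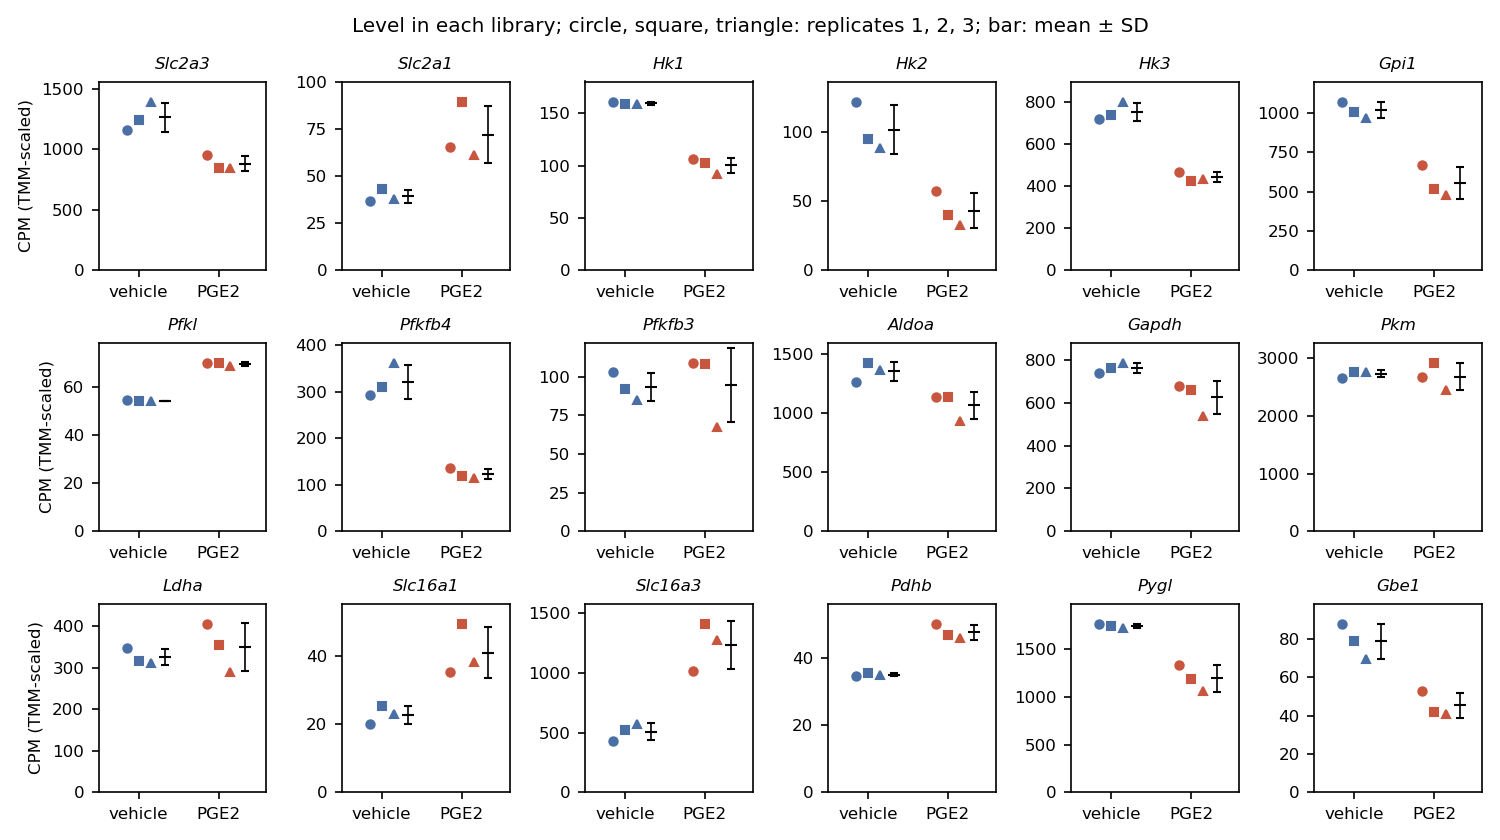
Level of 18 members in each library, in CPM from 0 on a linear axis, vehicle in blue and PGE2 in red; symbols are replicates 1 to 3 and black bars the mean ± SD. Hk1, Hk3 and Pfkl show tight groups that do not overlap, while Pfkfb3, Pkm and Ldha overlap.

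Gpi1 (chr7:34201327-34230336) turns glucose-6-phosphate into fructose-6-phosphate. It stood at 1070.2, 1006 and 970.2 CPM in vehicle and 666, 519.7 and 477 CPM with PGE2, a log2 fold change of -0.87 ± 0.13 (edgeR adjusted p = 0.00245; 0.0526 without both libraries numbered 2). In TPM it went from 618 ± 69.3 to 313 ± 70.1. Phosphofructokinase, which commits the sugar to glycolysis, moved in the other direction in its main gene. Pfkl (chr10:77986947-78009807), the liver-type subunit, was at 54.2, 53.9 and 54.0 CPM in vehicle and 69.7, 69.9 and 68.6 CPM with PGE2. The step is small, a log2 fold change of 0.36 ± 0.07, and the spread within each group smaller still (edgeR adjusted p = 0.00882). On log2(TPM + 1) the Pfkl change was 0.26 with a limma adjusted p of 0.153, and without both libraries numbered 2 the edgeR adjusted p was 0.115. Pfkp, the platelet-type subunit, did not pass (54.5, 48.1 and 65.3 CPM against 47.4, 42.0 and 42.3 CPM, without overlap, edgeR adjusted p = 0.0735). With the replicate number as a block Pfkp was lower (-0.34, edgeR adjusted p = 0.0298), as it was without vehicle replicate 2 (-0.45, 0.0482) and with DESeq2's Wald test (adjusted p = 0.0428). The summed TPM of Pfkp, Pfkl and the scarce muscle-type Pfkm was 40.2 ± 2.20 in vehicle and 43.5 ± 4.47 with PGE2. Pfkp overlaps Pitrm1 and Pfkm overlaps Senp1, each on the other strand, and Senp1 holds more counts than Pfkm, so the Pfkm value of 2.88 ± 0.722 and 3.23 ± 0.451 CPM is uncertain.

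Fructose 2,6-bisphosphate, the strongest activator of phosphofructokinase, is made and broken down by the PFKFB enzymes, which differ in how far each activity dominates. Pfkfb4 had the largest change of all members that passed the filter. Located at chr9:108988272-109032236, it was at 292, 311 and 362 CPM in vehicle and 136, 119 and 115 CPM with PGE2, and the groups were far apart. The log2 fold change was -1.39 ± 0.11 (edgeR adjusted p = 0.000265), a level 2.61-fold lower. Pfkfb3, the form whose kinase activity dominates most, was at 103, 91.8 and 85.1 CPM and at 109, 108 and 67.2 CPM, and its interval ran from -0.40 to 0.44 on the log2 scale. Pfkfb4 gave 78.0 ± 5.39% of the summed PFKFB TPM in vehicle and 62.3 ± 4.51% with PGE2, and Pfkfb3 19.5 ± 4.90% and 33.1 ± 5.26%. Pfkfb2, which overlaps Yod1 on the other strand (12.3 ± 0.629 and 13.7 ± 1.35 CPM) and Pfkfb1 (1.19 ± 0.433 and 0.977 ± 0.665 CPM) did not pass, nor did Fbp1, the fructose bisphosphatase of gluconeogenesis (2.29 ± 0.581 and 1.42 ± 0.560 CPM).

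Aldolase splits fructose 1,6-bisphosphate. Aldoa (chr7:126795234-126800994), at 1532 ± 17.7 TPM in vehicle and 1126 ± 116 TPM with PGE2, supplied nearly all of it. Its values were 1267, 1426 and 1367 CPM in vehicle and 1132, 1134 and 934 CPM with PGE2. The groups did not overlap, but the call was marginal (-0.34 ± 0.11, edgeR adjusted p = 0.0473), and the adjusted p lay between 0.00839 and 0.244 over 16 other fits. It failed when any of 5 libraries was left out (all but PGE2 replicate 1, whose omission gave 0.0470) and with library totals alone (0.0666). Triosephosphate isomerase (Tpi1) was at 82.9, 83.5 and 82.0 CPM in vehicle and spread from 72.9 to 101 CPM with PGE2, and it overlaps Spsb2 on the other strand. Aldoc, the brain-type aldolase, was near 5 CPM in both groups (4.49 ± 1.62 and 5.05 ± 2.60 CPM).

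None of the 8 genes of lower glycolysis passed edgeR's test (2 had an unadjusted p below 0.05, Gapdh and Bpgm, and DESeq2's Wald test called 1, Gapdh), although Gapdh, Pgk1, Eno1 and Eno3 each had all 3 PGE2 libraries below all 3 vehicle libraries, a pattern found in 21.8% of all genes tested. With the replicate number as a block, Bpgm was called higher (edgeR adjusted p = 0.000215). Gapdh, often used as a reference gene, was at 737, 761 and 786 CPM in vehicle and 679, 661 and 538 CPM with PGE2 (-0.28 ± 0.11, edgeR adjusted p = 0.0876). It passed as lower on log2(TPM + 1) (-0.42, limma adjusted p = 0.0256) and with DESeq2's Wald test (adjusted p = 0.0423). Its adjusted p over 16 other fits ran from 0.0256 to 0.272. Phosphoglycerate kinase (Pgk1) had a log2 fold change of -0.17 ± 0.09, phosphoglycerate mutase (Pgam1) -0.13 ± 0.10 and enolase 1 (Eno1) -0.13 ± 0.09. Pyruvate kinase, the last step, has the highest TPM of the list. Pkm was at 2667, 2771 and 2762 CPM in vehicle and 2675, 2924 and 2453 CPM with PGE2, with an interval of -0.25 to 0.19 on the log2 scale. Its 2 splice forms are summed in the table. The enolase genes of neurons and muscle were scarce beside Eno1 (Eno2 at 0.551 ± 0.0700 and 0.535 ± 0.285 CPM, Eno3 at 35.9 ± 0.785 and 31.2 ± 2.85 CPM). Eno3 overlaps Pfn1 on the other strand, which holds far more counts and fell by 0.46 ± 0.09 on the log2 scale, so the Eno3 value is uncertain. Near-identical copies also hold reads. Eno1b, a retrotransposed copy, was at 42.6 ± 3.02 and 46.4 ± 10.2 CPM, and the pseudogene Pgam1-ps2 at 62.1 ± 5.62 and 70.6 ± 6.29 CPM beside 147 ± 15.1 and 134 ± 6.50 CPM for Pgam1, so the levels of Eno1 and Pgam1 depend on how reads were divided.

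**Figure D3:**
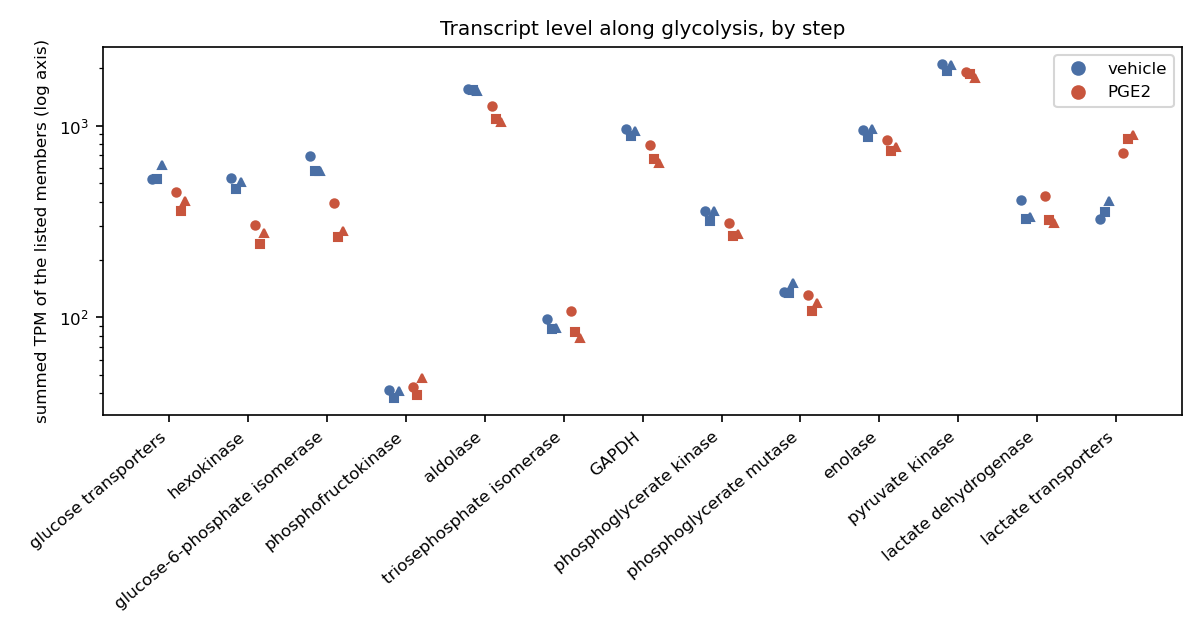
Summed TPM of the members of each step, one symbol per library on a log axis, from glucose transport at the left to lactate transport at the right; vehicle in blue, PGE2 in red. Hexokinase and glucose-6-phosphate isomerase separate downward with PGE2 and the lactate transporters upward, and phosphofructokinase has the lowest TPM of the steps plotted.

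Summed by step, TPM with PGE2 relative to vehicle was 0.506 for glucose-6-phosphate isomerase, 0.540 for hexokinase, 0.736 for aldolase, 0.753 for Gapdh, 0.820 for phosphoglycerate kinase, 0.844 for enolase, 0.850 for phosphoglycerate mutase, 0.908 for pyruvate kinase and 0.995 for lactate dehydrogenase. These are ratios of group means with no test. Phosphofructokinase, at 1.08, was the step with the lowest level in both groups among those from glucose transport to lactate transport, followed by triosephosphate isomerase at 90.7 ± 5.94 and 89.8 ± 15.5 TPM. All 40 members together held 0.964 to 1.04% of TPM in vehicle and 0.798 to 0.907% with PGE2. These step and total values use TPM so that genes can be summed, and TPM was not scaled by TMM. By edgeR with TMM the fold was 0.546 for Gpi1, 0.822 for Gapdh, 0.982 for Pkm and 1.08 for Ldha. The TPM ratios of those steps are lower. Over all genes tested, the median log2 fold change was -0.06 on log2(TPM + 1) and 0.04 with TMM.

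Bpgm makes 2,3-bisphosphoglycerate, the small molecule that lowers the oxygen affinity of hemoglobin, and is known for its high level in red cells. It was at 78.6, 171 and 86.8 CPM in vehicle and 190.0, 406 and 146 CPM with PGE2, and the groups overlapped, since vehicle replicate 2 lay above PGE2 replicate 3. The log2 fold change was 1.14 ± 0.42 (edgeR adjusted p = 0.0843). With the replicate number as a block it was 1.09 with an edgeR adjusted p of 0.000215, and without both libraries numbered 2 it was 1.03 with 0.0220. Leaving out PGE2 replicate 2 alone gave 0.59 with an edgeR adjusted p of 0.259, and leaving out vehicle replicate 2 alone 1.58 with 0.0412. The order of the libraries in Bpgm was the same as in the sum of 6 red cell genes other than hemoglobin (Alas2, Slc4a1, Klf1, Ermap, Epb42 and Car1), which was 268, 552 and 268 CPM in vehicle and 582 and 1271 CPM in PGE2 replicates 1 and 2 and 432 CPM in replicate 3. Divided by that sum, Bpgm was 0.293, 0.310 and 0.323 in vehicle and 0.326, 0.320 and 0.338 with PGE2, a narrow range over all 6 libraries.

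Slc2a1 did not follow those red cell genes in the same fixed ratio. Divided by the same sum it was 0.137, 0.0785 and 0.141 in vehicle and 0.112, 0.0704 and 0.142 with PGE2. By that sum, PGE2 replicate 3 held less red cell signal than vehicle replicate 2 (432 against 552 CPM), and it held more Slc2a1 (61.3 against 43.4 CPM). By hemoglobin, PGE2 replicate 3 held more red cell signal than vehicle replicate 2 (2.51 against 1.86% of counts). The sum of the 12 red cell markers in the table gave that order too (23701 against 20167 CPM). Within each group, though, replicate 2 was highest in the red cell sum, in Slc2a1 and in the lactate transporter gene Slc16a1, which red cells express. Without both libraries numbered 2, Slc2a1 and Slc16a1 remained called higher. In the libraries kept, hemoglobin still took 0.413 and 1.11% of counts in vehicle and 1.57 and 2.51% with PGE2. That fit therefore cannot separate these rises from red cell signal. How much of either rise came from red cells was not tested.

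**Figure D4:**
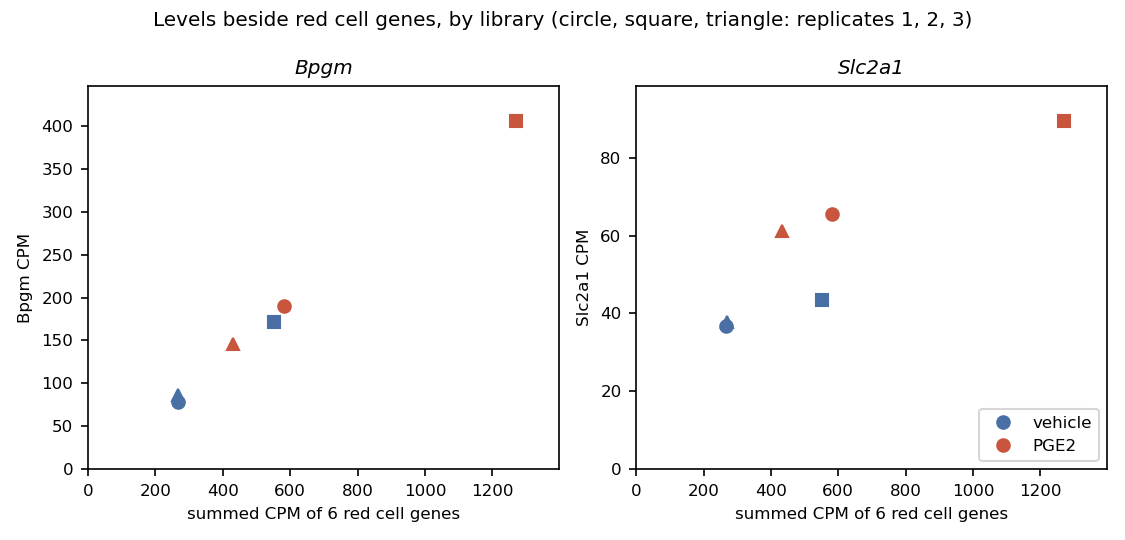
Bpgm (left) and Slc2a1 (right) in CPM against the summed CPM of 6 red cell genes without hemoglobin, one symbol per library, vehicle in blue and PGE2 in red. The Bpgm values of both groups fall near one line through the origin, while Slc2a1 in the 3 PGE2 libraries lies above the 3 vehicle libraries, from 61.3 to 89.5 CPM against 36.7 to 43.4 CPM.

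Lactate dehydrogenase, which turns pyruvate into lactate and restores NAD+, did not pass the test in either gene. Ldha was at 349, 317 and 312 CPM in vehicle and 406, 356 and 289.9 CPM with PGE2 (interval -0.19 to 0.40 on the log2 scale). Ldha supplied 98.4 ± 0.120% and 98.6 ± 0.202% of the lactate dehydrogenase TPM, and Ldhb, the heart-type subunit, the rest. Lactate leaves the cell with a proton through monocarboxylate transporters. Slc16a3 (chr11:120948484-120959000) encodes MCT4, the low-affinity exporter of strongly glycolytic cells, and had the largest rise among the members called. It was at 429.7, 517 and 574 CPM in vehicle and 1014, 1408 and 1271 CPM with PGE2, so the lowest PGE2 library was well above the highest vehicle library. The log2 fold change was 1.28 ± 0.15 (edgeR adjusted p = 0.000941), 2.43-fold, and it was 1.24, 1.44 and 1.15 in the pairs of libraries numbered 1, 2 and 3. Csnk1d, which overlaps Slc16a3 on the other strand with 16.6% of its counts, had a log2 fold change of 0.10 ± 0.11. Slc16a1 (chr3:104638664-104658462), which encodes MCT1, was at 19.98, 25.3 and 23.0 CPM and at 35.3, 49.5 and 38.2 CPM (0.85 ± 0.15, edgeR adjusted p = 0.00503). Slc16a3 gave 97.5 ± 0.252% of the summed TPM of the pair in vehicle and 98.2 ± 0.141% with PGE2. That sum was 362 ± 40.2 TPM in vehicle and 825 ± 91.0 TPM with PGE2. Lactate dehydrogenase summed to 326 to 408 TPM in vehicle and 311 to 430.0 TPM with PGE2.

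The pyruvate dehydrogenase complex converts pyruvate to acetyl-CoA, and the PDK kinases switch it off. Pdhb (chr14:8165991-8173303), which encodes the beta subunit of its first enzyme, was at 34.6, 35.7 and 35.2 CPM in vehicle and 50.3, 46.9 and 46.2 CPM with PGE2 (0.44 ± 0.08, edgeR adjusted p = 0.00588). On log2(TPM + 1) the Pdhb change was 0.32 with a limma adjusted p of 0.0739, and without both libraries numbered 2 the edgeR adjusted p was 0.0731. Its partner Pdha1, the alpha subunit, was at 85.6, 84.8 and 95.2 CPM and at 81.7, 67.0 and 80.1 CPM and did not pass (-0.22 ± 0.10, edgeR adjusted p = 0.170). Pdha1 overlaps Map3k15 on the other strand, which holds more counts and fell by 1.35 ± 0.15 on the log2 scale, so the Pdha1 value is uncertain. Among the kinases Pdk3 was the most abundant, with 63.5 ± 7.30% of their TPM in vehicle. Pdk3 was at 31.1, 25.9 and 20.5 CPM and at 23.4, 16.1 and 13.5 CPM, with a log2 fold change of -0.55 ± 0.23 that did not pass (edgeR adjusted p = 0.115). It passed as lower with the replicate block (-0.57, edgeR adjusted p = 0.00265), where the pairs gave -0.41, -0.69 and -0.60, and without PGE2 replicate 1 (-0.80, 0.0221). Pdk1, a HIF-1 target in many cells, was at 23.6 ± 3.07 and 22.9 ± 0.609 CPM, and Pdk2 at 5.79 ± 0.616 and 6.45 ± 0.789 CPM. Pdk4, the member that failed the filter, had 2 counts in vehicle replicate 2 and 0 in the other 5 libraries.

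Of the 5 glycogen members, the phosphorylase, synthase and branching enzyme genes fell and the 2 phosphoglucomutase genes were not called. Pygl (chr12:70190815-70227683), glycogen phosphorylase, frees glucose-1-phosphate and was among the most abundant members, at 1083 ± 83.0 TPM in vehicle and 687 ± 102 TPM with PGE2. It was at 1766, 1744 and 1716 CPM in vehicle and 1332, 1188 and 1058 CPM with PGE2 (-0.55 ± 0.10, edgeR adjusted p = 0.00635). Gbe1 (chr16:70313949-70569720), the branching enzyme, fell from 88.1, 79.2 and 69.7 CPM to 53.1, 42.2 and 40.9 CPM (-0.80 ± 0.13, edgeR adjusted p = 0.00364). Without both libraries numbered 2 the edgeR adjusted p was 0.114 for Pygl and 0.0590 for Gbe1, and it was 0.120 for the transporter gene Slc2a3. Gys1 (chr7:45434839-45456617), glycogen synthase, was at 60.6, 51.5 and 44.1 CPM and at 40.8, 27.4 and 25.0 CPM (-0.75 ± 0.20, edgeR adjusted p = 0.0273). The Gys1 call is fragile, with adjusted p-values of 0.0933, 0.0703, 0.0893 and 0.0887 without vehicle replicates 1 and 2 and PGE2 replicates 2 and 3, and 0.0505 with library totals alone, over a range of 0.000430 to 0.171 in 16 other fits. Gys1 also overlaps Ruvbl2 on the other strand. The phosphoglucomutases, which link glucose-1-phosphate and glucose-6-phosphate, did not pass (Pgm1 at 39.7 ± 1.53 and 36.0 ± 4.64 CPM, Pgm2 at 13.7 to 18.0 and 10.1 to 18.8 CPM). Pgm2 passed as lower only without PGE2 replicate 1 (-0.63, edgeR adjusted p = 0.0247). These names follow the deposited table, in which Pgm1 lies on chromosome 5 and Pgm2 on chromosome 4. The RefSeq table used here has the names the other way round.

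**Figure D5:**
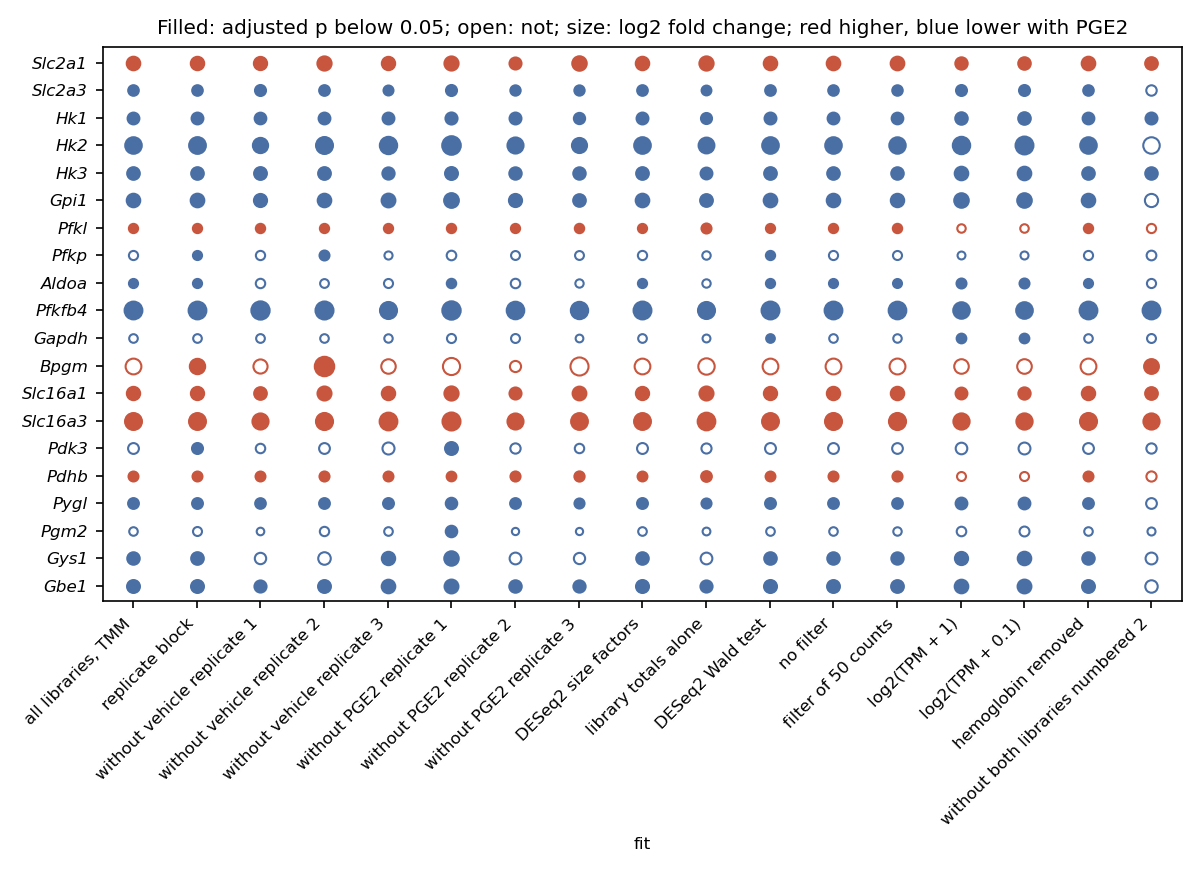
Call of each member that passed in at least 1 fit, over the reported fit and 16 others; filled symbols have an adjusted p below 0.05, symbol size follows the log2 fold change, red is higher and blue lower with PGE2. Slc2a1, Hk1, Hk3, Pfkfb4, Slc16a1 and Slc16a3 are filled in each column, while Aldoa and Gys1 lose their call in several.

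Of the 15 called members, all 15 kept their direction in each of the 16 other fits and 6 kept their call in all of them (Slc2a1, Hk1, Hk3, Pfkfb4, Slc16a1 and Slc16a3). In each of the 15 the groups did not overlap in CPM, so all 3 same-numbered pairs necessarily shift the same way. For Pfkfb4 the pairs gave -1.11, -1.39 and -1.66, and for Hk2 -1.10, -1.25 and -1.44.

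Genes that surround these steps were taken from lists drawn up with the members. Over all genes tested, 14.3% fell and 10.1% rose. In the pentose phosphate pathway, 4 of 12 genes fell and 1 rose, or 33.3% and 8.33%. H6pd, its form in the endoplasmic reticulum, went from 96.7, 96.4 and 91.9 CPM to 36.4, 31.2 and 31.1 CPM (-1.53 ± 0.09, edgeR adjusted p = 0.000145), and Tkt, transketolase, from 876 ± 104 to 491 ± 82.3 CPM. The NADPH-making G6pdx and Pgd, named after their values were seen, were the other genes that fell (-0.66 ± 0.14 and -0.48 ± 0.08). G6pdx overlaps Ikbkg on the other strand, which holds 59.4% of its counts and fell by 0.54 ± 0.09, so its value is uncertain. Rbks, ribokinase, rose by 2.01 ± 0.18 on the log2 scale from a low level (3.98 ± 0.404 CPM), and overlaps Gm38424, which has more counts. Of 9 tested genes (24 listed) for other forms of the same steps, 2 rose and 2 fell, or 22.2% each way. Bsg encodes basigin, the chaperone that brings MCT1 and MCT4 to the membrane, and went from 78.9, 83.2 and 78.2 CPM to 116, 136 and 113 CPM (0.61 ± 0.10, edgeR adjusted p = 0.00309). Adpgk, an ADP-dependent glucokinase, fell from 940.4 ± 206 to 469.5 ± 143 CPM. Ldhc, the testis-type lactate dehydrogenase, rose by 0.86 ± 0.25 from 4.65 ± 1.07 CPM, and the transporter gene Slc2a9 fell by 0.65 ± 0.16 on the log2 scale.

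In mitochondrial pyruvate entry, 1 of 11 genes rose and 1 fell. That is 9.09% each way, near the 10.1% of all genes tested that rose and below the 14.3% that fell. Dld, the third enzyme of the pyruvate dehydrogenase complex, rose by 0.57 ± 0.10, and Mpc2, a subunit of the pyruvate carrier, fell by 0.30 ± 0.09 on the log2 scale. Of 15 tested glycogen genes outside the members (19 listed), 2 rose and 3 fell. Among those that fell, Ugp2, which makes UDP-glucose, had a log2 fold change of -0.40 ± 0.09, and Ppp1r3d, named after its values were seen, -0.70 ± 0.18. Ppp1r3b, which targets phosphatase to glycogen, was at 0.49 ± 0.10 and the phosphorylase kinase gene Phkg2 at 0.32 ± 0.09. Ppp1r3d overlaps Fam217b on the other strand, which holds 118% of its counts and fell by 0.72 ± 0.20 on the log2 scale, and Phkg2 overlaps Ccdc189, which holds 25.4% of its counts and rose by 1.06 ± 0.11, so both values are uncertain. Ugp2 overlaps Vps54 on the other strand, which holds more counts and had a log2 fold change of -0.16 ± 0.10. Of 6 tested genes of gluconeogenesis and its neighbours (8 listed), 16.7% rose and 16.7% fell. Mdh1, a malate dehydrogenase, rose and the transporter gene Slc37a2 fell (0.53 ± 0.11 and -0.99 ± 0.13).

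Among 16 tested regulators of glycolytic genes (18 listed), 1 rose and 4 fell. That is 6.25% and 25.0%, against 10.1% and 14.3% of all genes tested. Hif1a, the oxygen-regulated subunit of HIF-1, went from 186, 215 and 177 CPM to 357, 382 and 313 CPM (0.86 ± 0.11, edgeR adjusted p = 0.00125). Akt1, a kinase of growth factor signalling, and Mlx, a partner of glucose-sensing factors, had log2 fold changes of -0.63 ± 0.10 and -0.44 ± 0.09, and the other genes that fell, named after their values were seen, were Mlxip and Prkaa1. Of 18 tested hypoxia response genes outside glycolysis (21 listed), 4 rose and 1 fell, or 22.2% and 5.56%. Their median log2 fold change was 0.22. Hilpda rose by 4.92 ± 0.52 and Vegfa by 0.43 ± 0.10, and Ndrg1 fell by 0.86 ± 0.12 on the log2 scale. The other genes that rose, named after their values were seen, were Ankrd37, which overlaps the more abundant Ufsp2 on the other strand, and Higd1a.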

How the data were processed

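RNA from 3 PGE2 and 3 vehicle cultures was measured by RNA-seq, with group and replicate read from each title. Libraries were made from polyA RNA with a TruSeq mRNA kit named as both standard and stranded, per the labels' protocols. Per the submitters' processing notes, the tools were STAR, Bowtie2, RSEM, StringTie 2.1.3b and DESeq2, on build mm10. Which of them made each value, and the strand setting, are not given in the sources used here. Values in the deposited table are estimated counts, whole numbers whose totals differ between libraries, although its name says normalized, and the deposited TPM values per gene. Its 18 columns of 6 libraries outside these samples were not used.

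Counts were rounded and genes with at least 10 counts in at least 3 libraries were tested with edgeR 4.0.16 (quasi-likelihood, TMM, two-sided, Benjamini-Hochberg, R 4.3.3), after a check on simulated data. Alternatives were a replicate block, leaving out each library in turn or both numbered 2 (added after seeing the data), DESeq2 1.42.0, other scalings and filters, TPM of at least 1 in 3 libraries with limma 3.58.1 at pseudocounts of 1 and 0.1, and hemoglobin counts removed. Same-numbered libraries had deviations from group means correlated at 0.258, 0.174 and 0.187, so the numbers may pair them. This comes from the data and the titles only, does not settle the pairing, and the reported fit has no block. Replicates differed by more than sampling noise. If libraries share animals or cultures, p-values measure only the spread between these libraries. Every member is reported. Of related lists, the 2 with the smallest adjusted p per direction are named, and of marker lists the most abundant. Members and lists were chosen with earlier results of these data known. Some genes of these lists are not reported by name here.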

Additional observations from a re-analysis of the deposited data

How the results depend on the processing

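Across the 16 other fits (replicate block, 6 libraries left out singly, both libraries numbered 2 left out, 2 other scalings, DESeq2's Wald test, 2 filters, 2 TPM pseudocounts, hemoglobin removed), no called member changed direction; Eno2 could be tested in 13 of them. Members called higher were 3 on log2(TPM + 1) and 3 on log2(TPM + 0.1), and 1 with a minimum log2 fold change of 1; members called lower were 3 without both libraries numbered 2 and 2 with that minimum. With a library left out singly, 5 to 6 members were higher and 8 to 12 lower. With the replicate block 6 members were higher and 12 lower, and beyond Bpgm, Pfkp and Pdk3 it changed no member's call. Over all genes, higher calls numbered 2648 with the replicate block, 967 and 953 on log2(TPM + 1) and log2(TPM + 0.1), 462 without both libraries numbered 2 and 404 with a minimum log2 fold change of 1; lower calls were 832 and 602 in the last pair of settings. With a library left out singly they were 1005 to 1541 higher (1005 without vehicle replicate 2, 1063 without PGE2 replicate 2) and 1627 to 2262 lower. The cause of these shifts was not tested.

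Of the members not called, 8 changed sign in at least 1 fit, all with intervals that include 0. On log2(TPM + 1) and log2(TPM + 0.1), log2 fold changes were -0.041 and -0.041 for Pfkm, -0.0060 and -0.024 for Aldoc, -0.025 and -0.025 for Tpi1, -0.14 and -0.14 for Pfkfb3 and -0.012 and -0.012 for Ldha. With library totals alone, Eno2 was at 0.046, Pkm at 0.062 and Pdk1 at 0.048. Without both libraries numbered 2, Pfkm was at -0.14, Pfkfb3 at -0.094 and Eno2 at 0.15, and with the replicate block Pfkfb3 was at -0.0077. With a library left out singly, the ranges were -0.024 to 0.31 for Pfkm, -0.23 to 0.53 for Aldoc, -0.085 to 0.23 for Pfkfb3, -0.54 to 0.26 for Eno2, -0.090 to 0.042 for Pkm, -0.0067 to 0.23 for Ldha and -0.13 to 0.051 for Pdk1. Pfkm, Pfkfb1, Fbp1, Eno2, Aldoc, Ldhb and Pdk2 were all under 10 CPM.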
